A study of Mus musculus with 2 samples.

Results

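Levels of 34 interferon-stimulated genes were examined in single cells of tumours of the mouse colon carcinoma line MC38, from mice given the SHP2 inhibitor SHP099 and from control mice. The genes were chosen by name from a list of 35 classical targets of type I interferon that leaves out the Ifit and Oas families. Of the 35 symbols, 34 were found once each among the 31053 features of the count tables. The symbol Mx2 was not among the features and is not analysed here.

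Type I interferons are secreted by cells that sense foreign or misplaced nucleic acid, and bind a receptor formed by Ifnar1 and Ifnar2 on nearly every cell. The receptor's kinases activate transcription factors that join IRF9 and bind the interferon-stimulated response element (ISRE) in promoters of their target genes. The products of these targets sense viral RNA and DNA, block steps of viral replication or tune the response itself, and in tumours the same genes are switched on in immune, stromal and cancer cells.

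MC38 cells were injected into the right flank of C57BL/6 mice, and treatment began 5 days later, when tumours averaged about 100 mm3. Each group had 6 mice, dosed intragastrically every day for 14 days with SHP099 (5 mg/kg) or PBS, and the control mice are also labelled untreated. SHP099 is an allosteric inhibitor of the phosphatase SHP2. No genetic modification of the mice or the MC38 cells is named in the labels. Each group gave 1 library of the 10x Chromium 3′ type, and the number of tumours behind it is not stated. With 1 library per group there was no replicate check and no test, so the 95% intervals below cover counting error only, and a difference between the libraries cannot be told apart from a difference between tumours or preparations.

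Control cells were captured in 8245 barcodes and 126218180 UMIs (unique molecular identifiers, each 1 captured RNA molecule), SHP099 cells in 8263 barcodes and 112901642 UMIs. The 2 libraries had 90 barcode sequences in common. After filtering, 7689 cells of each library remained. Clusters were made without the 34 genes and without 59 other listed genes of the interferon pathway. Interferon-responsive genes outside these lists could still take part. The names of the clusters, given by marker genes, stand for resemblance to a cell type (macrophage-like, T-like and so on). Mononuclear phagocytes (macrophages and monocytes joined) gave 2525 control and 2606 SHP099 cells, with median depths of 4423 and 4307.5 UMIs, and T cells gave 513 and 397, with 2385 and 2037 UMIs. The last large class, 4201 and 4300 cells with 24287 and 20114 UMIs, had almost no Xist, the RNA that silences an X chromosome. It expressed 4 of the 8 genes listed as MC38 markers at 10 CPM or more, while the epithelial genes Epcam and Krt19 were at 0, and it is called Xist-negative here. These 3 classes were compared between the libraries. Smaller classes of NK cells (99 and 54), dendritic cells (86 and 80), fibroblasts (71 and 44) and endothelial cells (30 and 45) were used mainly for levels. A few ratios are also given for dendritic cells, NK cells and fibroblasts, each from fewer than 200 cells per library.

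RefSeq promoter windows (build GRCm38.p6, 250 bases before to 50 bases after a transcript start) were at hand for 25 of the 34 genes. The core of the ISRE, which reads GAAA, any 2 bases and GAAA (or TTTC, any 2 bases and TTTC on the other strand), was searched on both strands, and overlapping matches were counted apart. It was found in windows of 12 of the 25 genes, or 48%, against 1079 of all 27018 genes with a window, or 3.99%. The motif TTCNNNGAA, the gamma-activated site of genes that respond to interferon gamma, was found in 5 of the 25, or 20%, against 9.55% of all genes. A match describes letters in a window and does not show that a factor binds there. The 8 genes with a match wholly upstream of a start are shown because they include the gene with most matches and several of those that differed most between the libraries. Each run is 60 bases, written 5′ to 3′ on the gene's strand, with the matched bases in capitals.
Isg15 (chr4:156200862-156200921, minus strand): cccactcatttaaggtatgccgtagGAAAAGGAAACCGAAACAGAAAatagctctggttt
Rsad2 (chr12:26456538-26456597, minus strand): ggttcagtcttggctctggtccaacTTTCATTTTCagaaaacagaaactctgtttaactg
Bst2 (chr8:71537568-71537627, minus strand): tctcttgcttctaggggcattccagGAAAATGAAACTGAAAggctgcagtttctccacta
Ifi203 (chr1:173942493-173942552, minus strand): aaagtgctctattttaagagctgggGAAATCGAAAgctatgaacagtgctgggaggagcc
Ifi213 (chr1:173599311-173599370, minus strand): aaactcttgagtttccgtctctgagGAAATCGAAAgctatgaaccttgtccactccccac
Trim30a (chr7:104465195-104465254, minus strand): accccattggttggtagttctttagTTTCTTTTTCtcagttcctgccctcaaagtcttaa
Slfn5 (chr11:82951922-82951981, plus strand): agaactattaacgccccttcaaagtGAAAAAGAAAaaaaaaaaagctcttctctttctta
Slfn8 (chr11:83020824-83020883, minus strand): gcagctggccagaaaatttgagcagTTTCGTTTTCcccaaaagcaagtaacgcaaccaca
The Isg15 run held 3 overlapping matches, the first beginning 78 bases before the start, and the Bst2 run held 2. The runs of Ifi203 and Ifi213, both in the Ifi200 cluster of chromosome 1, shared the unbroken 20 bases ggaaatcgaaagctatgaac. No other pair of these runs shared more than 9 bases. In Ddx58, Eif2ak2, Ifih1 and Ifitm3 the matches lay downstream of the start, the first of each reading TTTCGATTTC, GAAAACGAAA, GAAACAGAAA and GAAAAGGAAA.

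Across the cell classes, the 34 genes were widely expressed, and most made up a larger share of UMIs in mononuclear phagocytes than in Xist-negative cells. Levels are CPM, the UMIs of a gene scaled to the same total in every class, and are compared only within a gene. They do not give molecules per cell, since the median control cell held 24287 UMIs in the Xist-negative class and 4423 in phagocytes. Phagocytes lay above Xist-negative cells, with intervals apart in both libraries, for 27 of 34 genes, and the median fold was 1.91 in control and 1.98 in SHP099. The counts of genes above or below, here and for T cells, were not made over all genes. They lay below for 2, the RNA sensor gene Ddx58 (28.1 and 66.9 CPM in control) and the ADP-ribosyltransferase gene Parp12 (33.0 and 53.0 CPM). The widest gap was that of Ifi209, an Ifi200 family gene, at 103 CPM in control phagocytes and 0.681 CPM in control Xist-negative cells, and at 158 and 1.11 CPM in SHP099. Slfn1 and Slfn5 showed the same order, with Slfn5 at 90.7 CPM in control phagocytes and 1.85 CPM in control Xist-negative cells.

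T cells differed from phagocytes in both directions, with intervals apart in both libraries for 4 genes that were higher in T cells and 16 that were lower. The 4 were Isg20, Ifi27l2a, Ifi203 and Samd9l. Isg20, an RNA exonuclease gene, stood at 168 CPM in control T cells against 45.2 CPM in control phagocytes, and at 285 against 60.8 CPM in SHP099. Ifi204 showed the opposite, at 11.2 CPM in control T cells and 276 CPM in control phagocytes. Ifi27l2a, whose product is a small hydrophobic membrane protein, was at 3496 and 5741 CPM in T cells and at 159 and 231 CPM in NK cells of the same libraries. The Ifi27l2a level thus separated 2 lymphocyte classes in each library.

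The highest of the 7 classes was endothelial for 12 genes in control and 14 in SHP099, but these values rest on 30 and 45 cells. How often each class ranks highest or lowest over all genes was not counted, so these counts may not be particular to the 34 genes. For 21 of 34 genes the same class was highest in both libraries, and only for 3 of them did its interval lie apart from the next class in both. Those 3 were Rsad2 and Bst2, highest in endothelial cells, and Ifi27l2a, highest in T cells. Rsad2, which encodes the antiviral radical enzyme viperin, was at 187 and 385 CPM in endothelial cells, at 115 and 216 CPM in phagocytes, and at 16.4 and 19.7 CPM in NK cells. NK cells had the lowest level in both libraries for Isg15, Rsad2, Zbp1, Cmpk2, Bst2, Rtp4 and Xaf1 among others, from 99 and 54 cells.

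**Figure D1:**
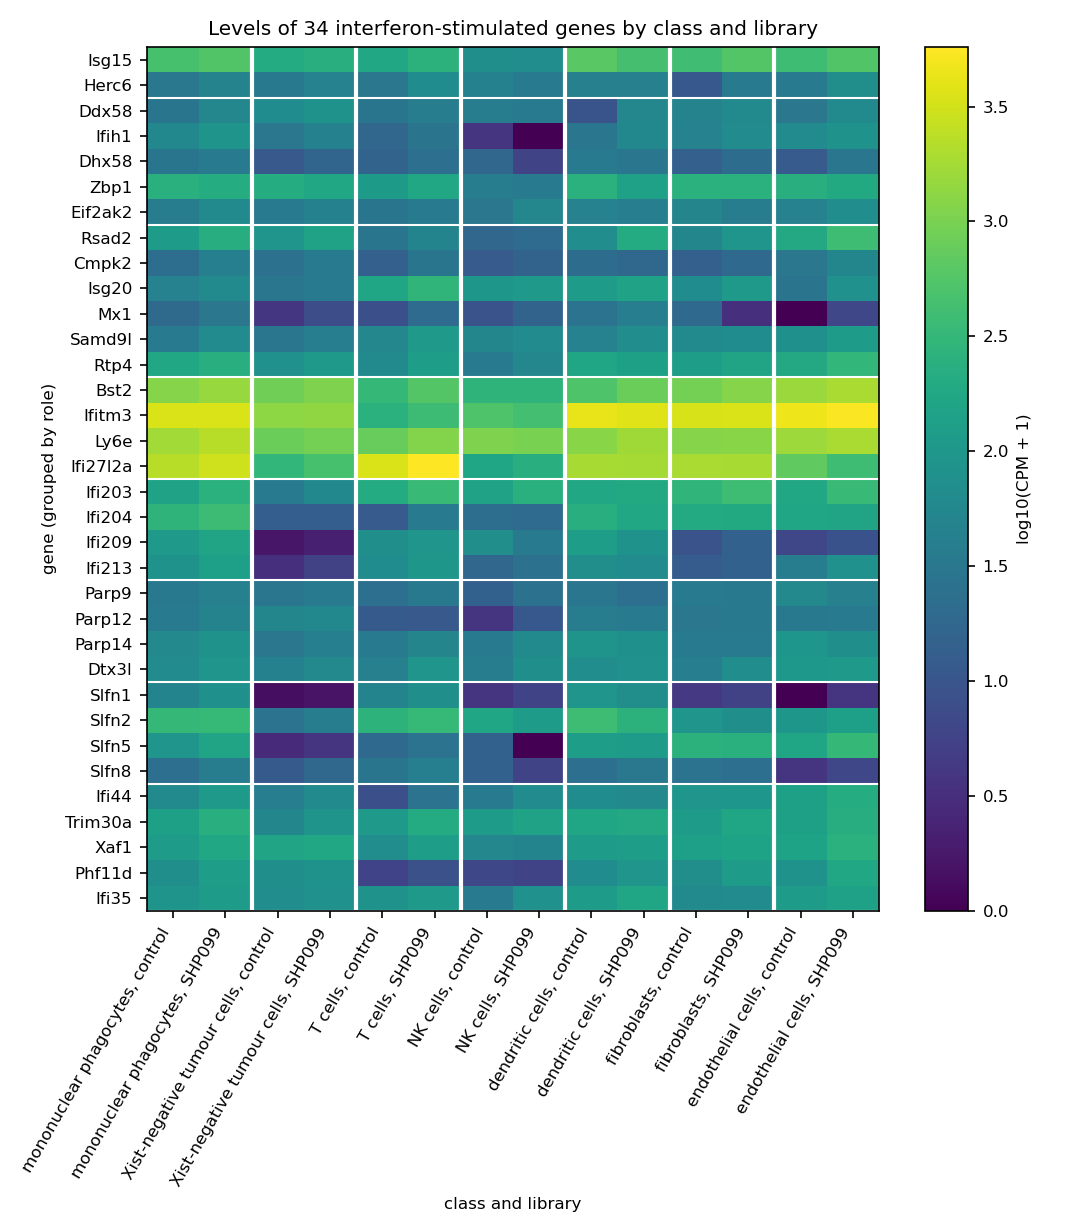
Levels of the 34 genes (rows, grouped by role) in 7 cell classes of the control and SHP099 libraries (columns), as log10(CPM + 1) on the colour scale; the class labelled Xist-negative tumour cells is the one called Xist-negative in the text. Bst2, Ifitm3 and Ly6e are bright in nearly every column, Ifi27l2a is brightest in T cells at 3496 and 5741 CPM, and Ifi209 is darkest in Xist-negative cells, at 0.681 and 1.11 CPM.

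Summed over the 34 genes, the level in phagocytes was 11813 CPM in control, with a Poisson interval of 11751 to 11876, and 14550 CPM in SHP099, with an interval of 14483 to 14617. Xist-negative cells gave 4787 and 5645 CPM, T cells 6653 and 10765 CPM and NK cells 3280 and 3403 CPM. Most of each sum came from 4 genes of membrane proteins, Bst2, Ifitm3, Ly6e and Ifi27l2a, which held 74.2% of it in control phagocytes and 72.6% in control T cells. Without them the sums were 3049 and 4209 CPM in phagocytes, 1473 and 1799 CPM in Xist-negative cells and 1825 and 2935 CPM in T cells, again higher in the SHP099 library in all 3 classes.

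In mononuclear phagocytes, 32 of the 34 genes had a higher level in SHP099, with the interval of the log2 ratio above 0, and 2, Zbp1 and Ifitm3, were lower with an interval below 0. The median log2 ratio of SHP099 over control was 0.53, while the median of all 6791 genes measured in this class was 0.05. Of these 6791 genes, 3988 had a ratio above 0, and intervals were not counted over all genes. A gene counts as measured at 10 CPM or more in either library, the ratio is taken after adding 0.5 CPM to both levels, and all 34 genes passed in both libraries. At least 1.5-fold higher were 16 of 34, against 4.33% of all measured genes, and none was 1.5-fold lower, against 1.88% of all. The count of 16 became 10 when the 4 phagocyte clusters were weighted alike. The genes are not independent of each other, since several are neighbours or close relatives.

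Among the sensors of foreign RNA and DNA in phagocytes, Ddx58, which encodes RIG-I, was at 28.1 CPM in control cells and 53.3 CPM in SHP099 cells. Its log2 ratio of 0.91 (interval 0.73 to 1.12) was the highest of the 34. Ifih1, which encodes the related sensor MDA5, was at 56.1 and 88.3 CPM (log2 ratio 0.65), and Dhx58, which encodes their regulator LGP2, at 27.9 and 35.9 CPM (0.36). Eif2ak2, the gene of the kinase PKR that stops translation on double-stranded RNA, was at 38.1 and 62.8 CPM, a log2 ratio of 0.71. Zbp1, whose product binds Z-form nucleic acid and can start necroptosis, went the other way, with 238 CPM in control cells but 210 CPM in SHP099 cells. Its log2 ratio was -0.18 (interval -0.26 to -0.10).

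The median log2 ratio of the antiviral effector genes in phagocytes was 0.75, and 4 of 6 were at least 1.5-fold higher. Rsad2 was at 115 CPM in control cells and 216 CPM in SHP099 cells, giving a log2 ratio of 0.90 (interval 0.81 to 1.00). Its head-to-head neighbour on chromosome 12, Cmpk2, whose product makes the nucleotide that viperin uses, was at 21.8 and 41.0 CPM and had the same ratio of 0.90. Samd9l, an inhibitor of translation in infected cells, was at 34.9 and 63.3 CPM (0.85), and Mx1, an antiviral GTPase gene, at 19.0 and 29.96 CPM (0.65). Isg20 and Rtp4 had the lowest ratios of the 6, at 0.42 and 0.40.

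Genes of membrane proteins were already abundant in control phagocytes and differed less, with a median log2 ratio of 0.36. Bst2, which encodes tetherin, a tether of budding virions, was at 1199 and 1509 CPM (log2 ratio 0.33), Ly6e at 1733 and 2255 CPM (0.38) and Ifi27l2a at 2285 and 3102 CPM (0.44). Ifitm3, which blocks the fusion of viruses with endosomes, was at 3548 and 3475 CPM, giving a log2 ratio of -0.03 (interval -0.05 to -0.01). None of these 4 genes was 1.5-fold higher.

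The Ifi200 genes, which encode DNA-binding HIN proteins, had a phagocyte median of 0.62 on this scale, with Ifi203 the highest at 144 and 254 CPM (0.82) and Ifi204 the lowest at 276 and 374 CPM (0.44). Slfn1, Slfn5 and Slfn8 of the Schlafen family, whose members restrain growth and translation, had ratios of 0.67, 0.76 and 0.69. Slfn2 stood apart from them at 314 and 330 CPM, a ratio of 0.07. Ifi200 genes and Schlafen genes each lie in 1 cluster and are close relatives, so reads may be shared between members of a family. Without these 8 genes, 10 of 26 were at least 1.5-fold higher.

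The PARP genes and Dtx3l, the ubiquitin ligase that works with PARP9, had ratios between 0.38 and 0.49 in phagocytes. Isg15, a ubiquitin-like protein attached to others, was at 466 and 551 CPM, giving a log2 ratio of 0.24 (interval 0.19 to 0.29). Herc6, the ligase that attaches it in mice, was at 31.4 and 46.4 CPM, a ratio of 0.56. Of the others, Ifi44, Phf11d and Trim30a had ratios of 0.84, 0.73 and 0.72, and Xaf1 and Ifi35 had 0.51 and 0.37. Mitochondrial genes held 2.17% of phagocyte UMIs in control and 3.08% in SHP099, and haemoglobin genes summed to 2.06 and 21.7 CPM, and their part in these differences was not tested.

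**Figure D2:**
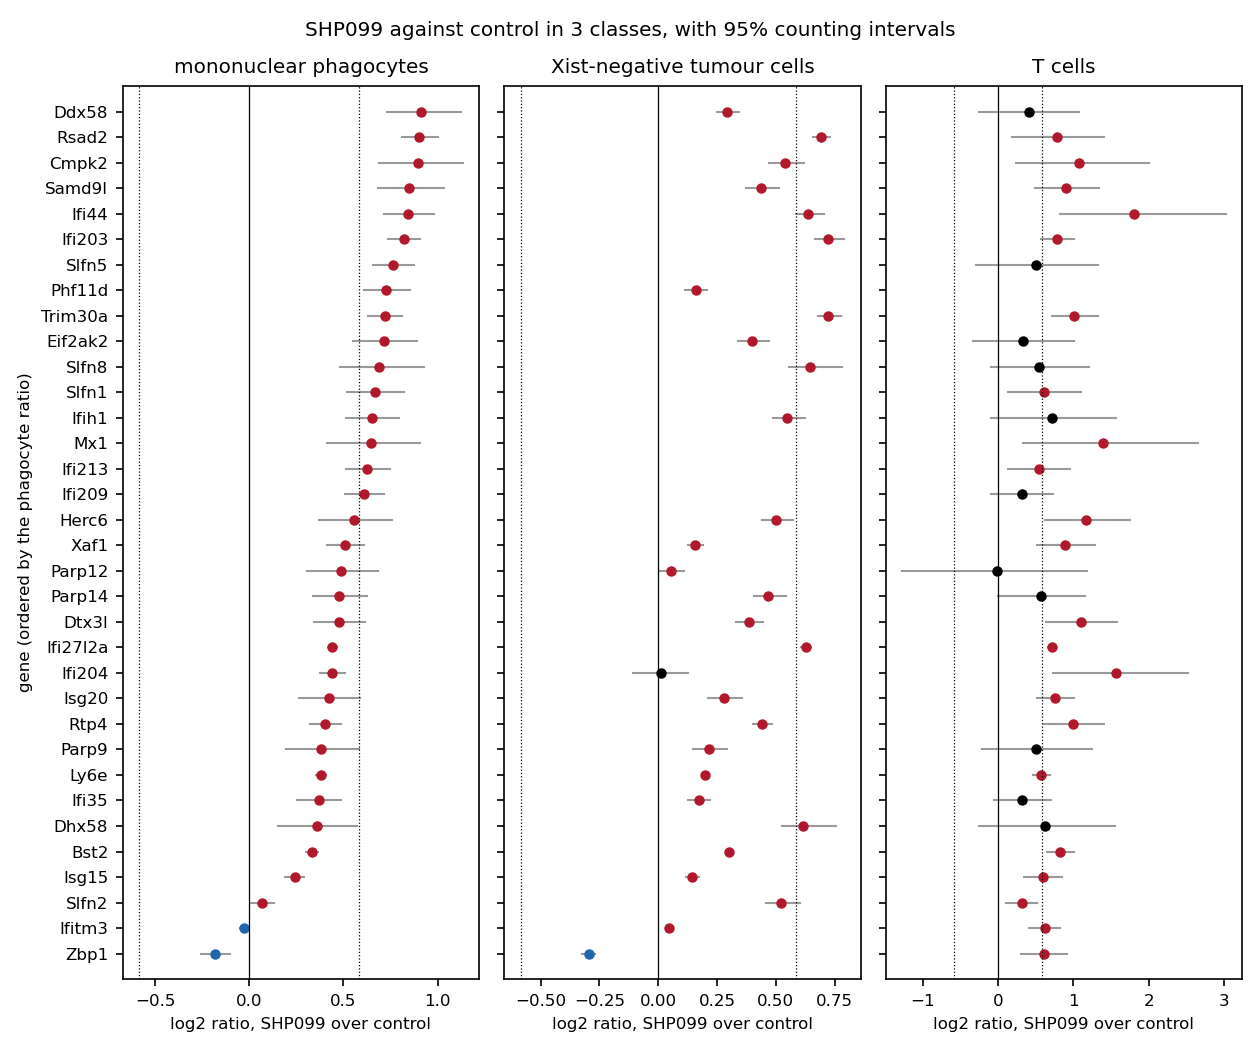
Log2 ratio of SHP099 over control for each gene (rows, ordered by the phagocyte ratio) in 3 classes, with 95% counting intervals as lines and scales that differ between the panels; red points have an interval above 0, blue points below 0, black points span 0, and dotted lines mark 1.5-fold. In phagocytes 32 points are red and 2 are blue, in Xist-negative cells Zbp1 is the only blue point, and in T cells no point is blue and the intervals are widest.

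In Xist-negative cells the ratios were smaller by median, and the difference between classes was not tested. Of the 34 genes, 29 were measured in both libraries, and Mx1, Ifi209, Ifi213, Slfn1 and Slfn5 lay under 10 CPM in both. The median log2 ratio over the 29 was 0.40, with 0.03 over all 7036 measured genes. At least 1.5-fold higher were 7 of 29, against 1.12% of all measured genes, and none was 1.5-fold lower, against 0.227%. None of the 29 stayed 1.5-fold higher when the 7 Xist-negative clusters were weighted alike, and the median was then 0.33.

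The 7 genes were Trim30a, Ifi203, Rsad2, Slfn8, Ifi44, Ifi27l2a and Dhx58. Trim30a, a regulator of innate signalling, was at 52.6 CPM in control cells and 87.2 CPM in SHP099 cells, giving a log2 ratio of 0.72 (interval 0.68 to 0.78). Ifi203 was at 33.3 and 55.2 CPM, also 0.72. Rsad2 was at 91.1 and 147 CPM, a ratio of 0.69, and Ifi27l2a at 303 and 468 CPM, a ratio of 0.63. Trim30a, Ifi203, Rsad2, Slfn8 and Ifi44 were past 1.5-fold in phagocytes as well, while Ifi27l2a and Dhx58 were not.

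At the low end, Ifi204 (12.3 and 12.4 CPM), Ifitm3 (1329 and 1373 CPM) and Parp12 (53.0 and 55.1 CPM) had ratios of 0.01, 0.05 and 0.06 in Xist-negative cells. Isg15 was at 206 and 227 CPM, a ratio of 0.15. Zbp1 was at 209 and 170 CPM, giving a log2 ratio of -0.30 (interval -0.33 to -0.27), and was the only gene of the 29 with an interval below 0. Macrophage markers summed to 172 and 220 CPM in these cells against 31670 and 32628 CPM in phagocytes, and haemoglobin genes to 30.7 and 112 CPM. The 5 fibroblast markers summed to 1164 and 1565 CPM, the 7 monocyte markers to 129.5 and 182 CPM, and the 8 tumour markers to 429.9 and 323 CPM, while Malat1 was at 17830 and 24368 CPM. The part of these values in the ratios was not tested.

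In T cells the ratios were larger by median, with wider intervals. Over the 33 measured genes the median log2 ratio was 0.63, with 0.07 over all 6915 measured genes. At least 1.5-fold higher were 21 of 33, against 11.6% of all measured genes, and none was 1.5-fold lower, against 6.8%. The count of 21 became 16 when the T cell clusters were weighted alike. Intervals lay above 0 for 22 genes and below 0 for none. Of all 6915 measured genes, 4043 had a ratio above 0, and their intervals were not counted. Of the 33, 31 were measured in both libraries, and Mx1 and Ifi44 passed through their SHP099 level alone, so their higher level there is partly fixed by that filter. Phf11d was under 10 CPM in both. Over all cells of each library, whatever their class, 11 of 33 measured genes were at least 1.5-fold higher in SHP099, against 1.31% of all measured genes, and none was 1.5-fold lower, against 0.341%.

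All 6 antiviral effector genes, Mx1 through the filter just named, were at least 1.5-fold higher in T cells of the SHP099 library. Rtp4 was at 60.6 and 122 CPM (log2 ratio 1.00), Samd9l at 54.7 and 103 CPM (0.91), Isg20 at 168 and 285 CPM (0.76) and Rsad2 at 28.3 and 49.1 CPM (0.78). Mx1 rested on 11 and 21 UMIs. Both Isg15, at 174 and 263 CPM with a ratio of 0.59, and its ligase gene Herc6, at 29.6 and 67.1 CPM with a ratio of 1.16, were higher.

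Of the genes measured in both libraries, Ifi204 had the largest T cell ratio, at 11.2 and 34.01 CPM (1.56), but few T cells held it. At 2000 UMIs it was found in 2.46% and 3.47% of them, with intervals that overlap (1.07 to 4.79% and 1.40 to 7.01%). Undrawn, the shares were 2.53% and 5.79%. Ifi44, which was measured through its SHP099 level alone, went from 11 UMIs (7.25 CPM) to 28 UMIs (26.4 CPM), and its ratio was 1.80 (interval 0.82 to 3.02). Dtx3l was at 42.2 and 90.7 CPM (1.10) and Trim30a at 103 and 208 CPM (1.01). Well-counted genes also differed, with Ifi27l2a at 3496 and 5741 CPM (0.72, interval 0.66 to 0.77), Bst2 at 316 and 560 CPM (0.83) and Ly6e at 769 and 1148 CPM (0.58). The smallest were Parp12 at -0.02 and Slfn2, Ifi209, Ifi35 and Eif2ak2 between 0.31 and 0.34.

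Zbp1 and Ifitm3, which were lower in phagocytes, were higher in T cells. Zbp1 was at 113 CPM in control T cells and 172 CPM in SHP099 T cells, giving a log2 ratio of 0.61 (interval 0.30 to 0.92). Ifitm3 was at 248 and 381 CPM, giving a ratio of 0.62 (interval 0.41 to 0.83). In NK cells of the same libraries Zbp1 was at 38.3 and 34.4 CPM and Ifitm3 at 528 and 438 CPM. Macrophage markers summed to 258 and 317 CPM in T cells, with Adgre1 at 0 in control, and haemoglobin genes to 23.1 and 315 CPM, and their part in the T cell ratios was not tested.

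Within clusters, which were made without these genes, many ratios had the same sign throughout a class. Of the 34 genes, 26 were higher in all 4 phagocyte clusters, against 17.3% of all genes measured in each of them. In Xist-negative cells 12 of the 26 measured throughout were higher in all 7 clusters, against 14.8% of all genes, and in T cells 11 of 27 in all 5, against 6.04%. The classes differ in the number and size of their clusters, so these counts are not compared between classes. Bst2 was higher in every Xist-negative and T cell cluster and in 3 of 4 phagocyte clusters. Trim30a, Ifi203, Ifi27l2a, Dtx3l, Parp14 and Samd9l were higher in all 16 clusters of these 3 classes, a count not made over all genes. Some of these ratios lay close to 0, such as 0.004 for Ifi27l2a in an Xist-negative cluster and 0.018 for Parp14 in a T cell cluster.

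Zbp1 had 1 sign per class. Its log2 ratio was below 0 in 4 of 4 phagocyte clusters, from -0.34 to -0.10, and in 7 of 7 Xist-negative clusters, from -0.45 to -0.24. It was above 0 in 5 of 5 T cell clusters, from 0.10 to 0.75, with intervals above 0 in 2 of them. Of all genes measured throughout a class, 12.3% were lower in every phagocyte cluster and 11.3% in every Xist-negative cluster. In the monocyte cluster, led by Ly6c2 and Chil3, Zbp1 was at 330 and 261 CPM, and in the macrophage cluster led by Mmp12 and Arg1 at 159 and 127 CPM. The dendritic cell cluster, led by Ccl17, Ccl22 and Ccr7, also held less Zbp1 in SHP099, with 254 and 142 CPM and an interval of -1.33 to -0.36.

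Rsad2 was higher in all 4 phagocyte clusters, with ratios from 0.62 to 1.04, and the dendritic cells went from 24 UMIs (68.6 CPM) to 92 UMIs (205 CPM), a ratio of 1.57. In Xist-negative cells its ratio ranged from -0.03 in the cluster led by haemoglobin genes and Ung to 0.63, the value of both the dividing cluster led by Cenpf and Prc1 and the cluster led by Rorb and H19. T cell clusters scattered from -1.09 to 2.73 on 3 to 17 UMIs each, too few to order them.

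Class ratios of Isg15 differed from its ratios within clusters, and the part of the cluster mix in them was not tested. In Xist-negative cells the class ratio was 0.15, but only 3 of 7 clusters were higher and the mean over clusters was -0.00. The cluster with the most Isg15 in both libraries, led by the matrix genes Aspn and Ogn, was at 365 and 380 CPM, and it held 346 control and 647 SHP099 cells. The cluster led by the hypoxia genes Bnip3 and Car9 held the least, 96.4 and 89.0 CPM. In phagocytes 3 of 4 clusters were higher and the mean over clusters was 0.11 against a class ratio of 0.24. Isg15 in T cells ranged from 158 and 92.5 CPM, a ratio of -0.77, in 1 cluster with Cd8b1 and Cd8a among its leading genes, to 69.2 and 307 CPM, a ratio of 2.14, in another of this kind.

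Ifi204 showed a comparable split in Xist-negative cells. Its class ratio was 0.01, yet it was lower in all 4 clusters where it was measured, from -0.52 to -0.19, with intervals below 0 in 3 of them. In the dividing cluster, where it lay under the limit of 10 CPM, it was at 9.76 and 9.09 CPM. In phagocytes it was higher in 4 of 4 clusters, from 0.23 to 0.56.

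The list medians within clusters were below those of whole classes for most clusters. They ran from 0.34 to 0.62 in the 4 phagocyte clusters, from 0.11 to 0.34 in the 7 Xist-negative clusters and from 0.14 to 1.12 in the 5 T cell clusters, while the all-gene medians of these clusters lay between -0.05 and 0.19. The highest phagocyte median, 0.62, was in the macrophage cluster led by Cd72, Ms4a7 and C1qa, with 888 and 1232 cells. Summed over the 34 genes, monocytes held the most among phagocytes, 16369 and 18099 CPM, and the Mmp12 and Arg1 cluster the least, 8406 and 9475 CPM, with 687 and 373 cells. Among T cells the cluster led by Tnfrsf4 and Ikzf2, with Ctla4, held the most, 15396 and 18830 CPM. Outside the 3 classes the list median was -0.09 in dendritic cells, 0.21 in NK cells and 0.19 in fibroblasts, each from fewer than 200 cells per library. The all-gene medians of the same clusters were 0.07, -0.07 and 0.05.

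**Figure D3:**
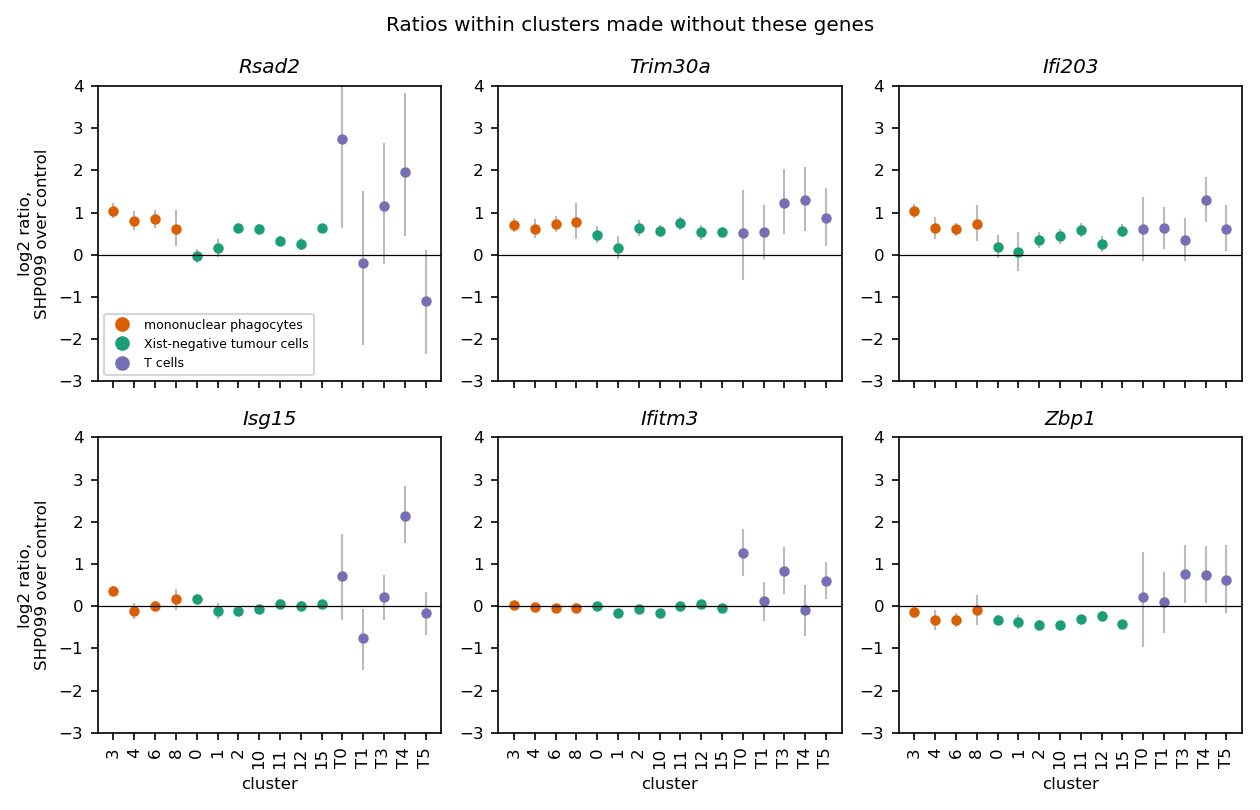
Log2 ratio of SHP099 over control of single genes (1 panel each) within clusters of the 3 classes (horizontal axis, coloured by class), with 95% counting intervals drawn up to the limits of the axis. Zbp1 lies below 0 in 4 of 4 phagocyte and 7 of 7 Xist-negative clusters and above 0 in 5 of 5 T cell clusters, whereas Rsad2 lies above 0 in all phagocyte clusters.

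The number of listed genes found in a single cell was also larger in the SHP099 library. Each cell was drawn down to 2000 UMIs so that depth did not set the number, which left out 218 and 213 phagocytes, 88 and 33 Xist-negative cells and 188 and 195 T cells that were shallower. The median phagocyte then held UMIs of 8 of the 34 genes in control and 9 in SHP099. Phagocytes with 10 or more of them made up 30.5% of control (exact binomial interval 28.6 to 32.4%) and 48.8% of SHP099 cells (46.7 to 50.8%). In Xist-negative cells the median was 5 and 6 genes and the share with 10 or more 7.37% and 14.2%. In T cells it was 5 and 6 genes and 10.5% (7.35 to 14.3%) and 20.3% (14.98 to 26.5%). The number of all genes found per cell at 2000 UMIs was not compared. How far the shift is particular to the 34 genes was therefore not tested. At this depth 56.8% of all measured genes were found in a larger share of SHP099 than of control phagocytes. The value was 51.7% in Xist-negative cells and 55.3% in T cells.

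**Figure D4:**
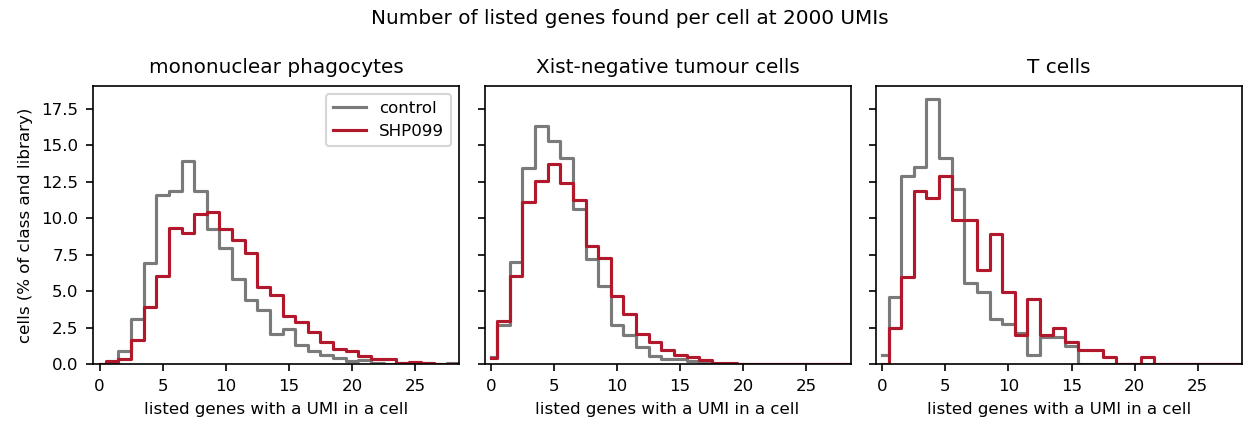
Share of cells (vertical axis, % of the class and library) by the number of the 34 genes with a UMI in a cell drawn down to 2000 UMIs (horizontal axis), for control and SHP099 in 3 classes. The SHP099 distribution lies to the right of control in each panel, with medians of 9 against 8 genes in phagocytes and 6 against 5 in the other classes.

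For single genes at 2000 UMIs, the share of phagocytes with a UMI of Rsad2 was 14.5% in control and 21.9% in SHP099, and without drawing down it was 22.7% and 32.7%. In T cells the drawn-down Rsad2 shares were 4% and 6.93%, with intervals that overlap (2.15 to 6.74% and 3.84 to 11.4%). Isg15 was found in 44.5% and 50.7% of phagocytes at 2000 UMIs (62.3% and 68.1% undrawn). Zbp1 went from 36.9% to 32.8% of phagocytes and from 36.2% to 29.95% of Xist-negative cells, while in T cells it went from 18.5% to 28.2%. The undrawn Zbp1 shares were 58.7% and 54.3%, 90.7% and 87.0%, and 26.1% and 30.7%. At 2000 UMIs the share was higher in SHP099 for 33 of 34 genes in phagocytes, where 56.8% of all measured genes had a higher share. It was higher for 26 of the 29 measured genes in Xist-negative cells, against 51.7% of all, and for 30 of 33 in T cells, against 55.3%. Undrawn, it was higher for 33, 28 and 33 of the 34 genes, measured or not. The undrawn count was not made over all genes, and undrawn shares follow depth, which differed between the libraries. RNA free in the droplets adds UMIs to cells of all classes, and no class here is known to lack these genes, so no background level was taken from one.

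Other genes of the interferon pathway were taken from a list of 59, of which 51 were measured in phagocytes, 43 in Xist-negative cells and 42 in T cells. In phagocytes 7 were at least 1.5-fold higher and 4 lower, where all measured genes gave 4.33% and 1.88%. Of the 7, an Ifit gene (4.55 and 16.8 CPM) and an Oas gene (9.79 and 15.1 CPM) passed through their SHP099 level alone. Their higher level there is partly fixed by that filter. In Xist-negative cells 4 were higher and 0 lower, against 1.12% and 0.227%. In T cells 10 were higher and 1 lower, against 11.6% and 6.8%. Of the ligand genes, Ifnb1 gave 3 and 1 UMIs in phagocytes. In Xist-negative cells it gave 6 and 55 UMIs, or 0.0575 and 0.596 CPM, below the limit of 10 CPM.

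Among the factors that drive these genes, Irf7, itself an interferon target, was at 492 and 600 CPM in phagocytes (log2 ratio 0.29), 72.9 and 120 CPM in Xist-negative cells (0.72) and 75.7 and 168 CPM in T cells (1.15). Irf1, a factor induced by interferon gamma as well, was at 98.3 and 65.6 CPM in phagocytes, a ratio of -0.58, and 78.8 and 66.2 CPM in Xist-negative cells, -0.25. Of the genes that damp the pathway, Usp18, which removes ISG15 and blocks the receptor, was at 44.9 and 97.5 CPM in phagocytes (1.11), and Socs1 at 52.8 and 32.6 CPM (-0.69).

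The measured Ifit genes, RNA-binding antiviral proteins, had medians of 1.18, 0.80 and 1.20 in phagocytes, Xist-negative cells and T cells, above those of the 34 genes. Oas genes, which make the activator of RNase L, had medians of 0.44, 0.36 and 1.30. The medians rest on 5, 4 and 4 Ifit genes and on 6, 4 and 3 Oas genes. In phagocytes they include the Ifit and the Oas gene that passed through SHP099 alone. Of 19 genes listed as responsive to interferon gamma, though not to it alone, 18, 17 and 14 were measured in these classes, with medians of -0.09, -0.15 and 0.13. In phagocytes, for example, Cxcl9 was at 553 and 310 CPM (-0.84), while Cxcl10 was at 361 and 538 CPM (0.57).

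Genes whose levels followed Isg15 and Zbp1 most closely over clusters were ranked by Spearman's rho across 38 points, each a cluster in 1 library. The points share libraries, and clusters of 1 class resemble each other, so no p-value is given. Isg15 was followed most closely by Ifi47 (0.90), Rtp4 (0.88), Ube2l6 (0.84), Casp4 (0.83) and Ly6e (0.83), of which Rtp4 and Ly6e are among the 34. For Zbp1 they were Irgm1 (0.81), Psmb10 (0.79), Casp4 (0.79), Ifit3 (0.77) and Tapbp (0.76), and none of these is among the 34.

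The ratios of genes with and without an ISRE match overlapped. In phagocytes the 12 genes with a match in a window had a median log2 ratio of 0.70 and the 13 without one 0.56, and both groups spread widely, from -0.03 to 0.91 and from 0.07 to 0.90. In Xist-negative cells the medians were 0.47 over 10 genes and 0.38 over 11. In T cells the order was the opposite, 0.61 over 12 genes and 0.83 over 12. Ddx58 and Rsad2, the highest in phagocytes, and Trim30a and Ifi203, the highest in Xist-negative cells, each had a match. Isg15, with 3 matches, lay among the lowest ratios in both classes, and Cmpk2 and Samd9l, with no match in their windows, were among the highest in phagocytes.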

How the data were processed

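The deposited matrices hold UMI counts per gene and cell, made by the authors with Cell Ranger on mm10 (also GRCm38) per the submitters' processing notes. Their headers give software 3.1.0, and no annotation is named in the sources used here. Cells needed at least 200 genes and at most 20% mitochondrial UMIs, which 99 and 103 barcodes (genes) and 282 and 333 (mitochondrial) did not meet, and Scrublet removed 263 control and 211 SHP099 doublets (3.31% and 2.67%, with 6.36% and 6.32% expected).

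Cells of both libraries were clustered together in scanpy 1.11.5 (Python 3.11.15) from 2000 variable genes, with 30 principal components, 15 neighbours and the Leiden method at resolution 1.0. Left out were the 34 genes, the 59 other listed interferon genes, mitochondrial, ribosomal, haemoglobin and immunoglobulin genes and Xist. Clusters were named by the marker list whose genes stood highest, as mean log2, above their 25th percentile over clusters, where 3 or more of them were in 10% of the cells at 2 times the level elsewhere. Clusters with Xist under 0.02 of the median cluster formed the Xist-negative class, a limit set after the levels were seen. They held 1.9 to 5.3 CPM of Xist, and the next cluster, of 16 neutrophils, 78.9 CPM. A shallow cluster led by Ctsk and Mmp9 (138 and 147 cells) was left unnamed. Lymphocyte clusters were split once more by the same steps.

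A level in CPM is the UMIs of a gene in a class and library over all its UMIs, with an exact Poisson interval. Before log2 ratios (SHP099 over control) were taken, 0.5 CPM was added, and their 95% conditional binomial intervals leave that out. The code was tested on simulated counts. Cells are not replicates, so no p-value was computed. The 35 genes and all lists were chosen with earlier results of these data known. Any of the 34 genes could be named, with values for the highest and lowest 5 per class and a panel of Isg15, Rsad2, Mx1, Ifi27l2a, Bst2, Zbp1 and Ifitm3. Others were added by role after their values were seen, as were the clusters and leading genes named. At most 8 other pathway genes were named from the list of 59, beside the 5 genes most like Isg15 and the 5 most like Zbp1. Positions come from GENCODE M21 on GRCm38 and promoter windows from RefSeq on GRCm38.p6. Alternatives covered the prior, the limit on low levels, the weighting of cells and clusters, doublets, the mitochondrial limit, resolutions of 0.5 and 2.0, each library clustered alone, cells assigned by their own markers, centring, and depth.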

Additional observations from a re-analysis of the deposited data

Results flagged for a closer look

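For 2 genes the intervals of the log2 ratio of SHP099 over control lay on opposite sides of 0 in different classes. Zbp1 had a ratio of 0.61 in T cells and of -0.30 in Xist-negative cells, and its phagocyte ratio was -0.18. Ifitm3 had a ratio of 0.62 in T cells and of -0.03 in mononuclear phagocytes. With 1 library per group neither difference between classes was tested. Macrophage marker genes summed to 258 CPM in control T cells and 317 CPM in SHP099 T cells, and their part in the T cell ratios was not tested.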

How the results depend on the processing

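Under the alternatives run, the list medians stayed above 0 in every case, from 0.48 to 0.60 in phagocytes, 0.29 to 0.43 in Xist-negative cells and 0.55 to 0.72 in T cells. Of the class medians and counts, 113 values stayed close to the reported ones and 7 did not. Close was taken broadly, since the 113 include lower counts of T cell genes at least 1.5-fold higher, in place of 21. These were 16 with clusters weighted alike, 16 with ratios centred on the all-gene median and 17 at the 10% mitochondrial limit. With clusters weighted alike, 10 phagocyte genes were at least 1.5-fold higher in place of 16, and 0 Xist-negative genes in place of 7, with a median of 0.33 in place of 0.40. Without Ifi200 and Schlafen genes, 10 of 26 phagocyte genes were. In Xist-negative cells a prior of 5 CPM left 4 higher genes, and genes at 50 CPM or more had a median of 0.29. Without doublet removal 1 T cell gene was 1.5-fold lower. These alternatives differ from the main setting in weights, prior, or genes and cells included, and why the values moved was not tested. At resolution 0.5, 1016 of 2525 control and 895 of 2606 SHP099 phagocytes fell in clusters that could not be named, and so did 819 of the SHP099 phagocytes when each library was clustered alone. Adding the unnamed cluster to the phagocytes, chosen after seeing the data, moved none of their values by more than counting error. No paired analysis was possible because each group has 1 library and no replicate number. T cells limit the precision most, with a median interval half-width of 0.48 on the log2 scale against 0.12 in phagocytes and 0.06 in Xist-negative cells. Shares of cells with a UMI moved with the depth drawn to, as in the values given at 2000 UMIs and undrawn.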
